A study of Mus musculus with 20 samples.

Results

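The axon guidance ligands and receptors of NSC-34 cells were followed through 4 assays of the RNA-binding protein HuD. Genes were chosen by name alone: Sema with a digit, Plxn, Epha, Ephb, Efna, Efnb, Ntn, Slit or Robo with a digit, and Nrp1, Nrp2, Dcc and Neo1. Of the 14924 genes in the RNA-Seq table, 47 met this rule. They comprised 17 semaphorins, 7 plexins, 2 neuropilins, 7 ephrins, 6 Eph receptors, Ntng2 and Neo1 of the netrin system, and 6 Slit or Robo genes. Dcc had no row in the table. Of the 47 genes, 33 had counts in the 3′ end sequencing, and 1, Sema4d, had HuD binding windows in CRAC.

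Guidance cues are secreted or membrane-bound proteins that attract or repel the growth cone, and their receptors sit on its surface. Semaphorins signal through plexins, and most of the secreted class 3 semaphorins, though not Sema3e, also need a neuropilin as co-receptor. Ephrins are held in the membrane and bind Eph receptor tyrosine kinases on the neighbouring cell. Netrins act through Dcc and Neo1, and Slits through Robo receptors, the pair known for keeping axons from recrossing the midline. In motor neurons these families steer axons out of the spinal cord and to their muscles. HuD (Elavl4) belongs to the neuronal ELAV family, which binds U-rich and AU-rich stretches, mostly in 3′ UTRs, and acts on the stability and translation of the mRNA.

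NSC-34 is a hybrid line of mouse neuroblastoma and embryonic spinal cord cells enriched in motor neurons. Cells labelled HuD carried a tetracycline repressor (Trex) and a lentiviral, tetracycline-inducible human HuD with a His-HA tag. In CRAC the controls were Trex cells without this HuD, so HuD and control cells are different engineered lines there. For CRAC, in which crosslinked RNA is purified with the tagged protein and crosslinks leave deletions in the reads, 3 HuD and 3 control Trex libraries were made after 24 h with 10 µg/ml tetracycline. Total RNA (RNA-Seq) and polysomal RNA (POL-Seq) had 2 libraries each from induced HuD cells (2 µg/ml tetracycline, 48 h) and from control cells. The 3′ end sequencing had 3 libraries of each, with the same induction. For the controls of these assays the labels name no inducer, and the methods do not state whether they were parental, Trex or uninduced HuD cells. The study calls the replicates biological, without saying how the cultures were separated, and p-values measure the spread between these libraries.

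RNA-Seq and POL-Seq libraries held 21296012 to 36284728 reads in genes and 3′ end libraries 12986862 to 15751036. Elavl4, read from the mouse gene, stood at 78.3 and 97.4 CPM (reads of the gene scaled by library size) in total RNA of control cells and at 237 and 212 CPM in HuD cells, a log2 change of 1.35 (SE 0.15, edgeR adjusted p = 0.0866). In the 3′ end libraries Elavl4 was at 78.1, 38.5 and 78.1 CPM in control and 54.6, 31.4 and 52.4 CPM in the libraries labelled HuD (log2 −0.49, SE 0.29, edgeR adjusted p = 0.922, and 0.0306 with the replicate number as a block). The 3′ end of the mouse gene does not test the human transgene, and those libraries are called by their labels here. In total RNA, reads of the human transgene may have been counted at the mouse gene, so the rise there need not be in mouse mRNA. This was not tested. Of 18 neuronal and motor neuron markers 16 were in the table, with summed levels of 3350 to 3841 CPM. Tubb3 reached 560 to 616 CPM in total RNA, while Chat and Stmn2 stayed under 1 CPM and Mnx1 and Slc5a7 had no row. Astrocyte markers summed to 21.04 to 38.7 CPM, oligodendrocyte markers to 13.98 to 19.2 and endothelial markers to 6.44 to 8.90, and none of the 7 microglial and fibroblast markers had a row.

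Sema4d, a transmembrane semaphorin that binds plexin B1, carried all CRAC windows found on these genes. Its 3 windows lay in the 3′ UTR on chromosome 13, minus strand (GRCm38). The first and the last of them are shown as RNA, 5′ to 3′, with the window in capitals and 11 flanking bases on each side.
Sema4d window at chr13:51702106-51702112: accagaggagaUGUUUUAauauucaugag
Sema4d window at chr13:51701320-51701326: uguguuuauaaGAUUUACuuuguuuuuau
Both windows hold a run of at least 3 U. The authors listed windows by their match to a sequence matrix built from HuD sites, so this is in part a condition of being listed.

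The window nearest the coding sequence started 497 nt after the stop codon and had 145 HuD reads with 3 deletions. The last window started 1283 nt after it, 74 nt before the transcript end, with 50 reads and 6 deletions. Deletions, the mark of a crosslinked base, were thus more numerous in the window with fewer reads. The authors listed windows with at least 3 deletions, so the other window was at this floor. Control cells had 0 reads at all 3 windows. The authors penalized locations with control reads when choosing windows, so a low control count is in part a condition of being listed. The authors pooled the libraries, so these counts have no replicate error, and the depth behind them is unknown. The authors' combined p-values were 0.0939 for the first and 0.0809 for the last window, and none of the 3 was under 0.05. The scores of these windows against the authors' positional weight matrix were 0.95 and 0.81, and a score above the authors' threshold was required for listing.

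With 228 reads in all, Sema4d ranked 132 by coverage and 324 by deletions among the 1304 protein coding genes with a window, whose median was 27 reads. At least 3 windows were found on 19.2% of those genes. Over the protein coding genes with RNA-Seq counts, 1282 of 12953 (9.90%) had a window, and over the axon guidance genes 1 of 47 (2.13%). In total RNA of control cells 8 guidance genes had a higher mean FPKM (reads scaled by exon length and library size) than Sema4d. None of the 8 had a window, Slit3 and Plxnd1 among them, and Plxna1, the last of them, was level with Sema4d at 9.90 FPKM. Of the 47 genes, Sema4d had the highest share of U in its 3′ UTR, 35.3% of 1363 nt, against a median of 26.4% over the 47 and 28.8% over all protein coding genes.

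The words of both windows were also searched in the last 500 nt of the 3′ UTRs (GENCODE vM21, sense strand only, since the search was in transcripts). GATTTAC was in 1 of 44 guidance genes with a 3′ UTR of that length (2.27%) and in 1.76% of 9478 protein coding genes. That 1 gene was Sema4d, from which the word was taken, so its match was fixed in advance. No other guidance gene held the word, and the 2 shares are therefore not a comparison. TGTTTTA was in 5 (11.4%; 13.3% of all genes), and Sema4d was not one of them, since its own window lies 860 nt before the transcript end. ATTTA, which lies inside GATTTAC, was in 24 of 44 (54.5%) and in 57.1% of all genes. A match of letters is not a bound site.

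Levels were compared per length, as FPKM (reads scaled by exon length and library size). The length is that of all annotated exons of a gene together, 25433 nt for Slit2 and 6067 nt for Slit3. Genes whose annotated exons exceed the mRNA made in these cells therefore read too low in FPKM, in ranks and in shares. In total RNA of control cells the 47 genes spanned from 0.0255 FPKM for Sema5a to 74.1 FPKM for Slit3, with a median of 2.64 against 6.93 over protein coding genes in the table. At least 1 FPKM was reached by 32 of 47. Slit3, a secreted ligand of Robo receptors, stood at 74.2 and 74.0 FPKM in the 2 control libraries and made up most of the 26.7% that Slits and Robos held of the summed level. Slit2 was at 3.24 and 3.18 FPKM and Slit1 at 2.11 and 2.53. Without scaling by length, Slit2 had 82.4 and 80.8 CPM against 450 and 449 CPM for Slit3. In FPKM the Robo receptors were low: Robo1 had 0.430 and 0.421, Robo2 0.0825 and 0.0774, and Robo3 0.102 and 0.0501. Robo1 and Robo2 were scaled by 16511 and 16983 nt of exons.

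All 7 plexins were above 1 FPKM, with a median of 8.74. Plxnd1, the receptor of Sema3e, had 30.4 and 28.1 FPKM, Plxnb2, a receptor of class 4 semaphorins, 15.9 and 16.5, and Plxna1, a partner of neuropilins, 9.53 and 10.3. Both neuropilins were close together, Nrp1 at 4.62 and 5.16 FPKM and Nrp2 at 4.09 and 4.41. Among semaphorins 3 transmembrane members of class 4 had the highest levels. Sema4c had 24.0 and 26.9 FPKM, Sema4b 12.2 and 12.4, and Sema4d 9.51 and 10.3. The other class 4 members, Sema4a, Sema4f and Sema4g, had means of 2.50, 1.71 and 1.03 FPKM. The secreted class 3 members ranged from Sema3f at 3.99 and 3.94 FPKM to Sema3e at 0.0575 and 0.0831.

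Among ephrins, Efna5, a GPI-anchored ligand of EphA receptors, stood at 15.0 and 16.8 FPKM, followed by Efna2 at 6.54 and 6.02 and Efna1 at 3.17 and 2.37. Of 6 Eph receptors, Epha8 (8.38 and 7.45 FPKM) and Ephb4 (4.36 and 4.44) were above 1 FPKM, and Epha10 followed at 0.574 and 0.532. Neo1, which binds netrins and repulsive guidance molecules, was at 13.4 and 16.1 FPKM. Ntng2, a membrane-anchored netrin-G, was at 3.22 and 3.07. In the order of levels, 23 of the 46 pairs of neighbours had overlapping values in the 2 control libraries, Plxna1 and Sema4d among them, at a mean of 9.90 FPKM each. Part of the exons of Efna3 (14.1%), Plxna1 (10.7%), Efna4 (10.5%) and Sema4c (7.27%) overlaps a gene on the other strand, and 13.98% of those of Ntng2 a gene on its own strand, so their reads cannot be fully assigned.

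**Figure D1:**
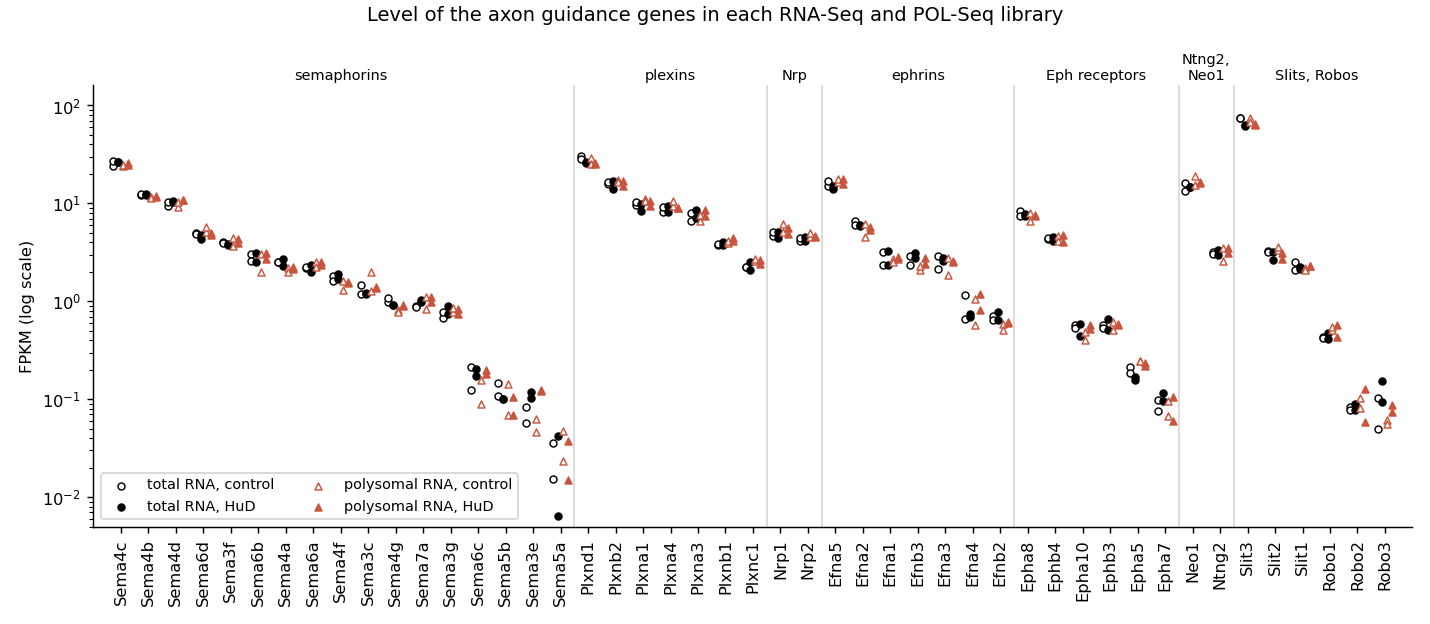
FPKM (log scale) of the 47 genes in each of the 8 RNA-Seq and POL-Seq libraries, grouped by family. Slit3 stands highest at 74.1 FPKM in control total RNA, all 7 plexins lie above 1, and Sema5a is lowest at 0.0255.

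Whether HuD expression altered the steady-state mRNA of these genes was asked in total RNA. None of the 47 genes differed at an adjusted p under 0.05 (edgeR quasi-likelihood test over 14906 genes, of which 0.00% were called), and DESeq2 called none of the 47 either (0.00671% of all genes). Without adjustment 1 gene passed, lower in HuD cells, where 1.78% of all genes passed as higher and 0.865% as lower. With the replicate number as a block 1 was higher and 1 lower without adjustment, where 3.58% and 2.58% of all genes were. The 2 groups of libraries did not overlap for 10 of the 47, 2 higher and 8 lower, and for 31.9% of all genes. The median log2 change of the 47 was 0.00, with 25 above and 22 below 0. For 35 of 47 genes the 95% interval of the change lay within 1.5-fold in either direction, and for 41 within 2-fold. In these bulk samples less RNA per cell and fewer expressing cells cannot be told apart.

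The gene that passed without adjustment was the one with the highest FPKM in total RNA. Slit3 had 74.2 and 74.0 FPKM in control and 62.5 and 61.6 FPKM in HuD total RNA, and the groups did not overlap. Its log2 change was −0.26 (SE 0.08, 95% interval −0.44 to −0.07, edgeR adjusted p = 1.00). In polysomal RNA it had 74.9 and 68.4 FPKM in control and 62.6 and 64.2 in HuD cells, a log2 change of −0.18 (SE 0.08, adjusted p = 0.969). Slit2, its paralog, pointed the same way in polysomal RNA, with 3.36 and 3.61 FPKM in control and 3.11 and 2.72 in HuD cells. The log2 change was −0.26 (SE 0.11, edgeR adjusted p = 0.969). In total RNA Slit2 was at 3.24 and 3.18 against 3.17 and 2.64 FPKM, −0.14 (SE 0.11). Slit1 was at 2.11 and 2.53 FPKM in control and 2.27 and 2.13 in HuD total RNA, and its groups overlapped.

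Polysomal RNA, the mRNA sedimenting with several ribosomes, gave a like picture. None of 47 genes passed the adjusted test (0.00% of all genes), and DESeq2 called none of the 47 (0.0201% of all genes). Without adjustment 1 was higher and 1 lower, where 2.29% and 1.89% of all genes were. The median log2 change was 0.03, with 28 genes above and 19 below 0, and 35 of 47 intervals lay within 1.5-fold. With the replicate number as a block, 3 genes were higher and 2 lower without adjustment, where 4.31% and 4.98% of all genes were, and again none passed the adjusted test. Groups did not overlap for 16 of the 47, 11 higher and 5 lower, and for 28.7% of all genes.

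Sema3e, a secreted semaphorin that binds Plxnd1 without a neuropilin, had the largest difference in polysomal RNA. It was at 0.0622 and 0.0466 FPKM in control and at 0.122 and 0.125 FPKM in HuD cells, so the groups did not overlap. These values rest on 19 and 9 reads in control and 42 and 37 in HuD libraries. The fold was 2.20 (95% interval 1.36 to 3.57, edgeR adjusted p = 0.969). In total RNA the reads were 16 and 27 against 28 and 37, a log2 change of 0.65 (SE 0.29, adjusted p = 1.00). Plxnd1 itself, its receptor, had 30.4 and 28.1 FPKM in control and 26.8 and 26.05 in HuD total RNA, a log2 change of −0.15 (SE 0.09, adjusted p = 1.00).

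**Figure D2:**
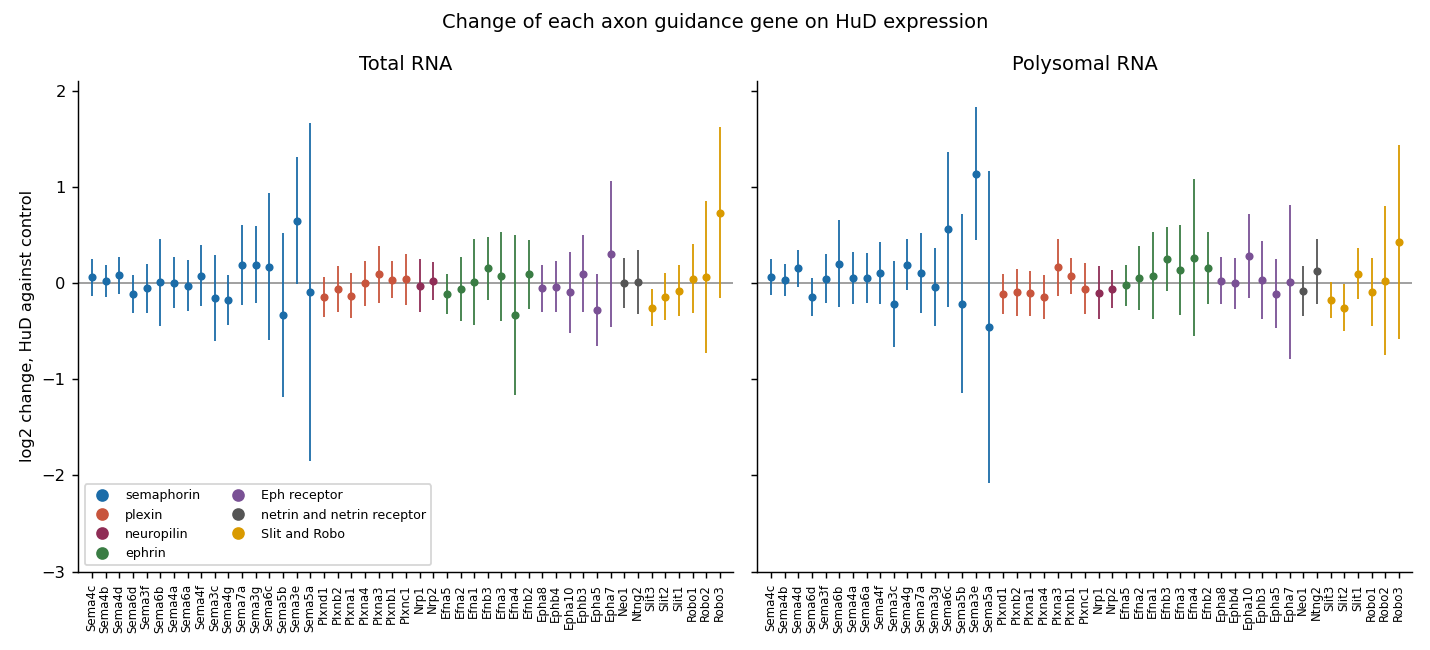
Log2 change of each of the 47 genes in HuD against control cells in total RNA (left) and polysomal RNA (right), coloured by family, with points for the edgeR estimate and bars for the 95% interval. Most intervals include 0, those of Slit3 in total RNA (−0.26) and of Sema3e (1.14) and Slit2 (−0.26) in polysomal RNA do not, and the widest belong to genes with few reads such as Sema5a.

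Sema4d, the gene with CRAC windows, was at 9.51 and 10.3 FPKM in control and 10.7 and 10.3 in HuD total RNA, and these overlapped (log2 0.08, SE 0.09). Its polysomal values were 9.23 and 10.2 in control and 10.9 and 10.8 in HuD cells, a log2 change of 0.15 (SE 0.09, 95% interval −0.04 to 0.35, edgeR adjusted p = 0.969), and these groups did not overlap. Without polysomal control replicate 1 the change was 0.08, and without replicate 2 of that group 0.23. The polysomal to total ratio was 0.971 and 0.994 in control pairs of libraries and 1.02 and 1.05 in HuD pairs. The change in this ratio was 0.08 on the log2 scale (SE 0.12, 95% interval −0.20 to 0.35, edgeR adjusted p = 1.00). The ratios did not overlap, and leaving out 1 library moved the change between 0.00 and 0.15. For a set of selected HuD targets the paper reports a significant rise in this ratio, its translation efficiency, on HuD overexpression. It names Sema4d among those with the greater rise, and attributes the rise to polysomal occupancy with almost no change in total RNA. Why the values here are smaller was not tested.

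Translation efficiency (TE), the polysomal to total ratio of each gene, was compared as an interaction term over all 8 libraries. None of the 47 genes had a changed TE, at an adjusted p under 0.05 (0.00% of all genes) or without adjustment (0.409% of all genes higher and 0.570% lower), and DESeq2 called none of them at an adjusted p under 0.05. The median log2 change in TE was 0.04, and 28 of 47 intervals lay within 1.5-fold. Sema4g, a transmembrane semaphorin, was closest. Its ratio was 0.819 and 0.727 in control pairs and 1.00 and 0.984 in HuD pairs, a log2 change of 0.36 (SE 0.17, edgeR adjusted p = 1.00). With the replicate number as a block the p of Sema4g was 0.0337 and the adjusted p 0.992, where 1.09% of all genes passed without adjustment as higher and 1.34% as lower. The ratios of the groups did not overlap for 15 of the 47 genes and for 38.5% of all genes.

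The polysomal share in itself was read from polysomal against total RNA of the same cells. In control cells 0.174% of all genes differed at an adjusted p under 0.05 and none of the 47, and DESeq2 called none of the 47 (0.449% of all genes). Without adjustment 1 guidance gene was lower and none higher, where 6.25% and 4.45% of all genes were. With the block 2 were higher and 3 lower, where 10.7% and 9.92% of all genes were, and none passed the adjusted test, as 0.275% of all genes did. Groups did not overlap for 18 of the 47 and for 39.0% of all genes. The gene lower without adjustment was Sema4g, with 0.989 and 1.07 FPKM in total and 0.811 and 0.777 in polysomal RNA (log2 −0.37, SE 0.12, edgeR adjusted p = 0.456). Without polysomal control replicate 1 the calls over all genes reached 14.4%, and 2 of the 47 were among them, Sema3c higher (0.57, SE 0.15, adjusted p = 0.0354) and Efna2 lower in polysomes (−0.48, SE 0.14, adjusted p = 0.0472). In HuD cells 0.537% of all genes and none of the 47 passed, and DESeq2 called 1.61% of all genes and none of the 47. Without adjustment 1 was higher in polysomes and none lower, where 4.85% and 7.59% of all genes were. With the block 2 were higher and none lower, where 9.20% and 10.7% of all genes were, and none passed the adjusted test, as 2.79% of all genes did. Groups did not overlap for 21 of the 47 and for 49.8% of all genes. The gene higher without adjustment was Epha5, an Eph receptor, with 0.156 and 0.168 FPKM in total and 0.236 and 0.220 in polysomal RNA (log2 0.49, SE 0.16, edgeR adjusted p = 0.262).

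The 3′ end sequencing counts reads at known polyadenylation sites. Of the 33 genes with counts, none passed the adjusted test between libraries labelled HuD and control (0.0520% of all genes did), while DESeq2 called 1, Nrp2 (0.364% of all genes). Without adjustment 3 were higher and 1 lower, where 2.87% and 3.00% of all genes were. With the replicate number as a block, 2 passed the adjusted test, Sema3c higher and Nrp2 lower, where 2.26% of all genes passed. Unadjusted, 7 were then higher and 4 lower, where 8.64% and 10.1% of all genes were. Groups did not overlap for 8 of the 33, where they did not for 12.0% of all genes. These were Sema3c, Sema4f, Sema4g, Sema6c and Plxna3 on the higher side and Nrp2, Sema3f and Sema3g on the lower.

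Nrp2, the co-receptor of Sema3c and Sema3f, had 3 listed 3′ ends on chromosome 1, plus strand. The 30 bases up to each end are shown as DNA (GENCODE vM21 transcripts), with the polyadenylation signal AATAAA in capitals where it was found.
Nrp2 end at chr1:62796981: aatgtgtctcatgttgccttataaaaagaa
Nrp2 end at chr1:62799314: tgtAATAAAatgacgatatttttatacaaa
Nrp2 end at chr1:62818695: atttaAATAAAcattataccagaactattt
In the first of these no AATAAA or ATTAAA lay within the 30 bases.

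The 3′ end level of Nrp2 was 78.7, 78.8 and 71.5 CPM in control and 36.7, 49.3 and 36.6 CPM in the libraries labelled HuD, so that every HuD library lay below every control library. The log2 change was −0.90 (SE 0.15, 95% interval −1.25 to −0.56, edgeR adjusted p = 0.134). With the block it was −0.91 (SE 0.10, adjusted p = 0.00139), and without the HuD library of replicate 2, which was the highest of its group, −1.06 (SE 0.14, adjusted p = 0.0167). The last end held 88.8% ± 0.67 of the counts in control and 87.1% ± 0.56 in HuD libraries (SD, n = 3). It had 1104, 971 and 995 counts in control and 432, 621 and 482 in HuD libraries. The middle end had 88, 54 and 75 counts against 25, 55 and 43, and the first 56, 59 and 56 against 37, 42 and 26. The mean CPM was lower at each end, at 0.52, 0.60 and 0.65 of control from the last to the first, and the test of end usage gave a Simes p of 0.886 (edgeR, adjusted p = 1.00).

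**Figure D3:**
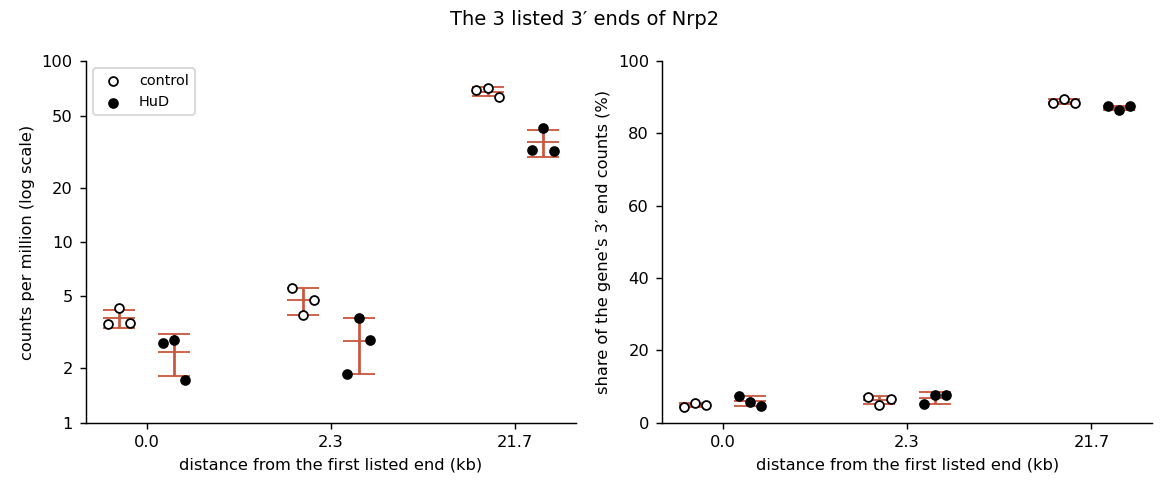
CPM (left, log scale) and share of the gene's 3′ end counts (right, in percent) at the 3 listed ends of Nrp2, ordered by distance from the first, with open points for control, filled points for libraries labelled HuD, and bars for mean ± SD (n = 3). The last end holds 88.8% and 87.1% of the counts in the respective groups.

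Total RNA did not show this difference. Nrp2 was at 4.09 and 4.41 FPKM in control and 4.52 and 4.11 in HuD cells, a log2 change of 0.02 (SE 0.09, 95% interval −0.18 to 0.22). Polysomal RNA gave 4.54 and 5.03 against 4.65 and 4.50 FPKM, a log2 change of −0.06 (SE 0.09). The difference between the 3′ end and RNA-Seq results was not tested, since the libraries were made and counted in different ways.

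Sema3c, a secreted semaphorin that binds neuropilins, was at 7.95, 6.32 and 6.60 CPM in control and 14.8, 10.98 and 10.8 in libraries labelled HuD. The groups did not overlap, and the log2 change was 0.81 (SE 0.20, edgeR adjusted p = 0.407; with the block 0.80, SE 0.14, adjusted p = 0.0173). Its listed ends lie within 3 nt of each other and hold close to equal counts, so the same reads may be counted at both. In total RNA Sema3c stood at 8.57 and 10.6 CPM in control and 8.70 and 8.50 in HuD cells, which overlapped, with a log2 change of −0.16 (SE 0.20). The 30 bases up to its end hold the signal.
Sema3c end at chr5:17730268: ggaaaAATAAAgcattcaattcccctgaaa

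Sema4f, a transmembrane semaphorin with a single listed end, was at 2.96, 4.43 and 3.05 CPM in control and 5.72, 5.42 and 5.78 in libraries labelled HuD (log2 0.70, SE 0.23, edgeR adjusted p = 0.694). Its total RNA was at 1.80 and 1.63 FPKM in control and 1.92 and 1.69 in HuD cells, with overlap. Plxna3, a plexin that pairs with neuropilins, was at 17.1, 13.8 and 16.4 CPM in control and 24.1, 19.3 and 22.4 in HuD libraries (log2 0.48, SE 0.16, adjusted p = 0.694). Neither passed with the block, where the adjusted p was 0.0890 for Sema4f and 0.0535 for Plxna3. When ends within 20 nt were counted once, Plxna3 passed with the block (log2 0.50, adjusted p = 0.0402, where 2.57% of all genes passed). Sema4d was at 21.8, 28.7 and 18.5 CPM in control and 25.6, 31.8 and 27.03 in HuD libraries, which overlapped (log2 0.29, SE 0.19, adjusted p = 0.938).

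**Figure D4:**
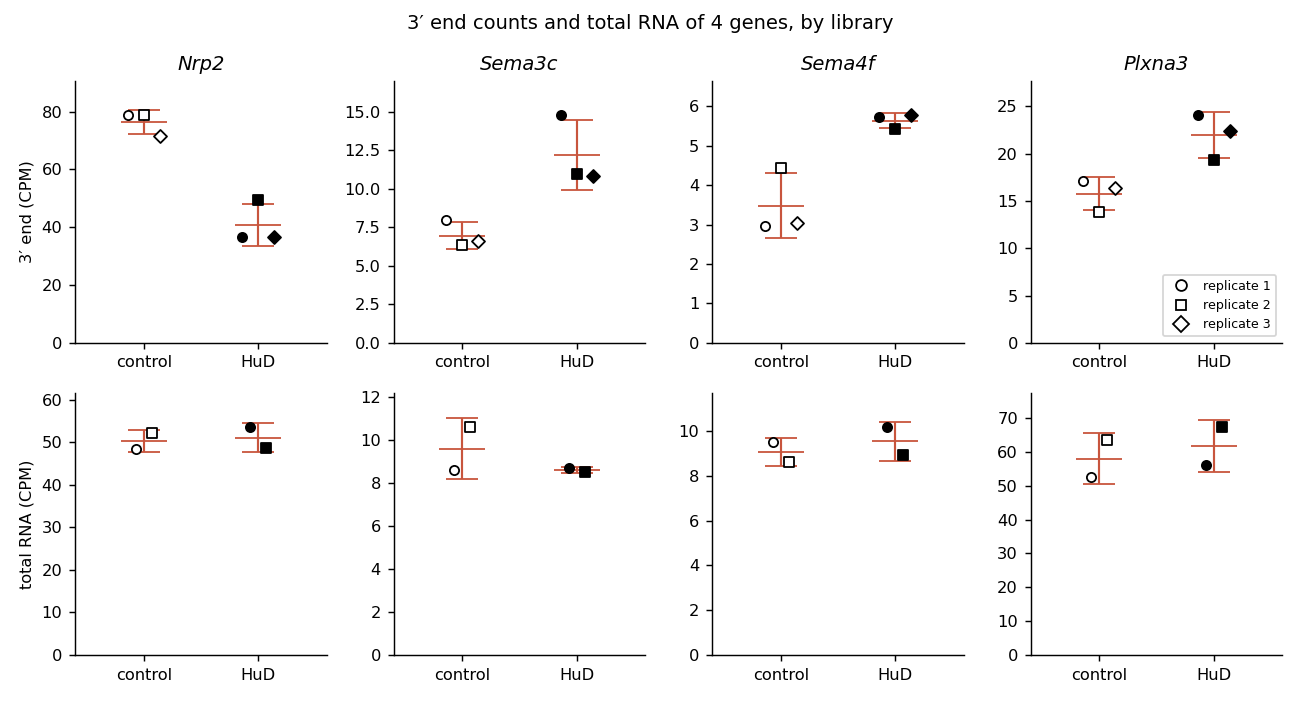
3′ end counts (upper row) and total RNA (lower row), in CPM on axes from 0, for Nrp2, Sema3c, Sema4f and Plxna3, with 1 point per library, symbols for the replicate number, and bars for mean ± SD (n = 3 above, n = 2 below). The 3′ end groups are apart for all 4 genes, from 76.3 to 40.8 CPM for Nrp2 and from 6.96 to 12.2 for Sema3c, and the total RNA groups overlap for all 4.

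The ratio of 3′ end to total RNA CPM in control cells had a median of 0.483 over the 33 genes and of 0.508 over all genes, and was under 0.1 for 4 of the 33 (12.1%) and for 11.7% of all genes. Slit3, Efna5 and Ephb3 were among the genes at the extremes of this ratio. Slit3, first in RNA-Seq with 11154 to 15711 reads per total RNA library, had only 29 to 70 3′ end counts, and Efna5 had 21 to 32. Of the 33 genes Slit2 had the most, 2092 to 3756 counts, so the order of levels differs between the assays. Ephb3, with 0.567 and 0.529 FPKM in control total RNA, had 184 to 322 at one of its ends, which lie 1 nt apart. Nrp1, Ephb4, Ntng2 and 11 other guidance genes had no row in the 3′ end table. The replicate 2 libraries of both groups stood apart for several genes. Epha10 had 29 and 45 counts in them and 121 to 167 in the other four. Of the 33 genes, 11 had their highest CPM in replicate 2 of both groups and 6 their lowest, and this was not counted over all genes. Over all listed ends, chi-square per degree of freedom between control replicate 2 and replicates 1 and 3 was 19.9 and 23.6. Between control replicates 1 and 3 it was 9.18. In libraries labelled HuD the same values were 26.1, 38.1 and 8.71, so replicate 2 differed beyond the guidance genes. What part this library difference has in the 3′ end results was not tested beyond the block and the fits without replicate 2.

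For usage of alternative 3′ ends within a gene, 11 guidance genes had at least 2 listed ends and none passed (0.0301% of 3317 genes did). The smallest Simes p values were 0.774 for Slit2, 0.855 for Efna1, 0.857 for Sema4c and 0.886 for Nrp2. At Slit2, 99.2% ± 0.16 of counts fell at the last end in control and 99.3% ± 0.22 in libraries labelled HuD (SD, n = 3). The pairs of ends of Efna1 and Sema4c lie 3 nt apart. With ends within 20 nt merged, 3 genes (Slit2, Nrp2 and Sema6a) still had several ends, and none of the 3 passed.

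Other receptors and cues of the guidance system, from a list of 24 such as the Unc5, Flrt and Celsr genes, were read beside the 47. Of 19 tested none passed the adjusted test in total RNA, polysomal RNA or TE, with medians of −0.08, −0.05 and 0.02 on the log2 scale where the medians of the 47 were 0.00, 0.03 and 0.04. Unadjusted, 0, 1 and 0 of the 19 passed, the 1 as lower, where 0.865%, 1.89% and 0.570% of all genes passed as lower and 1.78%, 2.29% and 0.409% as higher. In total RNA the smallest p values belonged to Unc5c (−0.25, SE 0.12), a repulsive netrin receptor, Celsr3 (0.17, SE 0.09) and Cdon (−0.17, SE 0.09). In polysomal RNA they belonged to Cdon, a co-receptor that also binds hedgehog (−0.28, SE 0.09, edgeR adjusted p = 0.969), Celsr3 (0.19, SE 0.09) and Unc5c (−0.25, SE 0.12). In TE they were Boc, Nrcam and Draxin, at −0.64, −0.74 and −0.18. Of 11 with 3′ end counts none passed. Flrt1, of a family of cell surface proteins that bind Unc5 receptors, was at 9.27, 7.20 and 8.31 CPM in control and 5.79, 5.08 and 3.05 in libraries labelled HuD (log2 −0.84, SE 0.26, adjusted p = 0.656; with the block 0.0474, where 2.26% of all genes passed). Unc5c (−0.50, SE 0.24) and Draxin (0.24, SE 0.14) came next.

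Of 46 intracellular effectors that carry the signal to the cytoskeleton, such as exchange factors, kinases and adaptors, 42 were tested. None passed the adjusted test in total RNA, polysomal RNA or TE, and unadjusted 1, 2 and 0 did, all as lower, against the shares of all genes just given. The medians were −0.03, −0.05 and −0.03 on the log2 scale. Farp1, an exchange factor linked to class A plexins, was at 35.8 and 40.1 CPM in control and 30.9 and 30.3 in HuD total RNA (log2 −0.31, SE 0.10, edgeR adjusted p = 1.00). The values were also below control in polysomal RNA (−0.23, SE 0.10, adjusted p = 0.969) and in the 3′ end libraries labelled HuD (−0.64, SE 0.24, adjusted p = 0.805; with the block 0.0463). Nck2 and Crkl, both adaptors, followed in total RNA at −0.14 and −0.13, and Nck1 and Farp2 in polysomal RNA at −0.22 and −0.46. The smallest p values for TE were those of Srgap1 (−0.90, SE 0.46), Nck2 (0.16, SE 0.11) and Pak1 (−0.21, SE 0.15). Of 34 effectors with 3′ end counts none passed. Srgap3, a GTPase-activating protein of the Slit and Robo pathway, was at 74.8, 72.0 and 61.3 CPM in control and 114, 108 and 121 in libraries labelled HuD, without overlap (log2 0.72, SE 0.13, adjusted p = 0.153; with the block 0.00538). With the block 2 of the 34 effectors, Srgap3 and Farp1, passed, where 2.26% of all genes did. Its total RNA was at 58.5 and 66.0 against 68.0 and 68.1 CPM. Pak2 was at −0.50 (SE 0.24).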

How the data were processed

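The 20 NSC-34 libraries came from CRAC (6), RNA-Seq and POL-Seq (8) and sequencing of 3′ ends (6). Per the labels and the methods, the authors aligned RNA-Seq and POL-Seq with STAR 2.5.3a to GRCm38 (Gencode M6) and deposited counts of reads per gene, not normalized. The strand setting of the counting is not given in the sources used here. The 3′ end table, as deposited, gives read counts by transcript at annotated polyadenylation sites, so that a shared end is listed for each transcript. CRAC reads were aligned with TopHat2 2.0.14. For CRAC, the authors deposited pooled coverage and counts of deletions per window, with a combined p-value and a score against their weight matrix. The results text of the study gives another inducer, dose and time for CRAC than its methods and the labels, and its methods name doxycycline for the other assays. The labels were followed.

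Lines of a gene with the same end position were reduced to 1 site, and sites were summed per gene, so reads near ends a few nt apart count at each. Listed CRAC windows on the minus strand were moved by 2 nt to the listed sequence. Tests of counts used edgeR 4.0.16 under R 4.3.3 (TMM, filterByExpr, quasi-likelihood, Benjamini-Hochberg over all genes, threshold 0.05), site usage with diffSpliceDGE and Simes' method. DESeq2 1.42.0 was an alternative. All 47 genes passed the filter. CPM and FPKM used TMM-scaled totals, and FPKM the merged length of all GENCODE vM21 exons of a gene. Intervals are 95%. Depth per library is given in the report. Replicates differed beyond sampling noise (chi-square per degree of freedom 7.78 to 39.2).

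The same replicate numbers occur in all groups. Deviations from the group means correlated between same-numbered libraries (r = 0.240 to 0.494 for RNA-Seq and POL-Seq, 0.415 to 0.678 for 3′ ends), so the numbers, which the labels give without naming a shared culture, were taken as pairs in the fit with the block. On simulated data of the same depth, 96.0% of 200 genes changed 2-fold were recovered in total RNA, 97.0% in polysomal RNA, 79.0% for TE and 81.0% for 3′ ends. The changed genes were drawn from those above a minimum mean count, which Sema3e, Robo3 and Sema5a do not reach. The simulation also held no effect shared by same-numbered libraries, so these shares can exceed the recovery in the data. Elavl4, with a log2 change of 1.35 in total RNA, did not pass (edgeR adjusted p = 0.0866).

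The genes named are those with CRAC windows, the 3 most abundant of each family, those passing each test (with up to 6 per direction at an unadjusted p under 0.05 where fewer passed), the 4 smallest usage p-values, and the 3 smallest p-values of both further lists in 4 comparisons. Other genes (Nrp1, Robo1 to Robo3, Sema3f, Sema3g, Sema4g for TE, Sema5a, Sema6c, Ephb3 and Plxnd1 beside Sema3e) were named after their values were seen. Members and lists were chosen with earlier results of these data known. The sequence and values of 1 CRAC window are not reported here.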

Additional observations from a re-analysis of the deposited data

Results flagged for a closer look

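Sema4g and Sema3g moved in opposite directions in total RNA and in 3′ end counts, in every same-numbered pair of libraries. Sema4g had a log2 change of 0.33 in 3′ end counts (pairs at 0.07, 0.54 and 0.36) and of −0.17 in total RNA (pairs at −0.11 and −0.23). Sema3g had −0.74 in 3′ end counts (pairs at −0.59, −1.59 and −0.38) and 0.19 in total RNA (pairs at 0.16 and 0.21). None of these values passed its adjusted test, and the difference between the assays was not tested. Opposite signs in all pairs occurred for 2 of the 33 guidance genes with both assays (6.06%) and for 777 of 9397 genes (8.27%), so the share is near that over all genes.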

How the results depend on the processing

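The count of guidance genes at an adjusted p under 0.05 was 0 in each of the 5 RNA-Seq and POL-Seq comparisons under every normalization, filter, test and block tried, and 0 to 2 in polysomal against total RNA of control cells when 1 library was left out (2 without polysomal control replicate 1, where 1 sample stands for its group and is assumed to vary like the others). For 3′ end counts it was 0, and 1 with DESeq2, 2 with the replicate block, 1 without both libraries of replicate 2, 0 to 1 when 1 library was left out (1 without HuD replicate 2), and 3 with ends within 20 nt counted once together with the block; the last and the fit without both replicate 2 libraries were chosen after seeing the data. The block changed no other adjusted call among the 47. End usage gave 0 throughout. All 3 CRAC windows are lost, leaving 0, when a combined p under 0.05 is asked for. The median level was 2.64 FPKM with TMM and 2.61 with plain totals. The number of genes passing without adjustment moved more. In total RNA it was 1, and 0 without HuD replicate 2 and 2 with the block, without control replicate 2 or without HuD replicate 1. In polysomal RNA it was 2, and 5 with the block and 1 to 8 when 1 library was left out (8 without polysomal control replicate 1 and 4 without replicate 2 of that group). In polysomal against total RNA it was 1 in control cells, and 5 with the block and 12 without polysomal control replicate 1, and 1 in HuD cells, with 0 to 2 when 1 library was left out. For TE it was 0, and 1 without polysomal control replicate 1. In 3′ end counts it was 4, and 11 with the block. The alternatives run for Sema4d, Slit3, Sema3e, Slit2, Sema4g, Epha5, Nrp2, Sema3c, Sema4f and Plxna3, in the comparisons that name them by rule, reversed no direction; other named genes had no such alternatives beside the block. Leaving out 1 library moved the log2 change of Sema4d from 0.02 to 0.14 in total RNA, 0.08 to 0.23 in polysomal RNA, 0.00 to 0.15 in TE and 0.16 to 0.48 in 3′ end counts, and none passed the adjusted test. Depth limits the low genes: over the 8 RNA-Seq and POL-Seq libraries Sema3e had 9 to 42 reads, Robo3 8 to 35 and Sema5a 4 to 29.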
